A study of Mus musculus with 4 samples.

Results

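Peaks of H3K9me3, trimethylated lysine 9 of histone H3, were compared between macrophages kept for 24 h with LPS and macrophages kept for 24 h with PBS. All peaks that the authors listed on chromosomes 1 to 19 and X of the 2 H3K9me3 libraries were taken, 17288 in the LPS list and 19162 in the PBS list. Together these are 36450 of the 96296 peaks of the whole series on those chromosomes. Both groups came from C57BL/6 mice, 8 weeks old, whose peritoneal macrophages were elicited with thioglycollate broth and left to adhere in dishes before treatment. LPS is the bacterial lipopolysaccharide that activates Toll-like receptor 4, and PBS, phosphate-buffered saline, was the control. Chromatin was precipitated with the antibody ab8898 against H3K9me3 or, in the matching libraries of the series, with ab8580 against H3K4me3. The series is titled for SUN proteins, inner nuclear membrane anchors of the cytoskeleton, but the labels name no genetic change in any of the 4 samples.

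Each group held 1 library, so no difference between LPS and PBS has a replicate check and none was tested. Intervals are exact 95% Clopper-Pearson intervals unless stated, and cover counting error only, not which peaks passed the caller's threshold. The labels do not give the sex of the mice or say whether animals were pooled. As a check of the cells, all 10 listed macrophage markers had H3K4me3 peaks in both treatments, with 56 to 942 tags in LPS and 38 to 1414 in PBS. Of the markers of T cells, 2 of 7 had one in each treatment, of B cells 3 of 6, of neutrophils 3 of 6 in LPS and 1 of 6 in PBS, of eosinophils and mast cells 1 of 5, and of mesothelium and fibroblasts 2 of 7 in LPS and 5 of 7 in PBS. The part of other cells in the H3K9me3 results was not tested.

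H3K9me3 is written by the methyltransferases SUV39H1, SUV39H2 and SETDB1 and is read by HP1 proteins, which compact the marked chromatin. It covers pericentromeric satellites and silenced retroelements, and it also lies over the gene bodies of zinc finger clusters, on the silent allele of imprinted genes and on promoters of germline genes that somatic cells keep silent. H3K4me3 marks the promoters of genes that are active or poised, and the same DNA seldom carries both marks on 1 allele.

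The sequences below show what the marked promoters looked like. They are the bases before the RefSeq start of each gene in the build GRCm38.p6, the same build as mm10, and the genes were chosen after their values were seen. The first set gives the 250 bases before the start at 4 promoters that lay wholly inside a peak of both lists, with each CG dinucleotide in capitals. Dazl encodes an RNA-binding protein of germ cells, Mest is an imprinted gene, Duxf3 belongs to the family of the embryonic transcription factor DUX, and C130026I21Rik is a gene of a repeated block beside Sp110.
Dazl, chr17:50293621-50293870, minus strand: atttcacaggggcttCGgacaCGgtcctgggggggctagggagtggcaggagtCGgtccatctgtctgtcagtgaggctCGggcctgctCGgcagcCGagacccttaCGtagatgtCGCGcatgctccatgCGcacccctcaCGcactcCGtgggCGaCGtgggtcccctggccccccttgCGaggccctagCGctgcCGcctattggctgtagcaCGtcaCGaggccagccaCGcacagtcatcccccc
Mest, chr6:30737800-30738049, plus strand: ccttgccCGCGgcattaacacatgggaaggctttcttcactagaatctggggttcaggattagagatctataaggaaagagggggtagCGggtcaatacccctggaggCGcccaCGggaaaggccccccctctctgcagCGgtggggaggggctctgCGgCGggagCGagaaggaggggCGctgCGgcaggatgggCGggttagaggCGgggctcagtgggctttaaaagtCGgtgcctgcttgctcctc
Duxf3, chr10:58233090-58233339, minus strand: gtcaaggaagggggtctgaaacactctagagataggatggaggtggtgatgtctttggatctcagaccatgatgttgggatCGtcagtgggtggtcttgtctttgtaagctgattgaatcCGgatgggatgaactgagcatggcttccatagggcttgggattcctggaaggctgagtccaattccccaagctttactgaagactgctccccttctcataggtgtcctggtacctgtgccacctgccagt
C130026I21Rik, chr1:85270567-85270816, minus strand: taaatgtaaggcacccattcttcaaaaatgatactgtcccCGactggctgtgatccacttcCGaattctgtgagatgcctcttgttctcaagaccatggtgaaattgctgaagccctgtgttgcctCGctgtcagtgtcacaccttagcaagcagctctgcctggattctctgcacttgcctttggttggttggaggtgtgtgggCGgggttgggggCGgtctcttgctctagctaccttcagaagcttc
The 250 bases held 20 CG dinucleotides at Dazl, 14 at Mest, 5 at C130026I21Rik and 2 at Duxf3, beside a median of 6 over all 32585 RefSeq promoter windows. Dazl had 121 tags with LPS and 127 with PBS, a tag being 1 sequenced fragment end counted inside the peak. Mest had 34 and 44 tags, Duxf3 923 and 926, and C130026I21Rik 256 and 528. H3K4me3 peaks lay on the promoters of Dazl, Mest and Duxf3 in both treatments, and none lay on that of C130026I21Rik in either.

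The second set gives shorter stretches around CACGTG, printed in capitals, at 5 promoters of genes used in meiosis and the germ line that carried H3K9me3 peaks in both lists. CACGTG reads the same on both strands. Ddx4 encodes a germ cell RNA helicase, Mael and Tdrd1 act in transposon silencing, and Sycp1 and Tex12 encode proteins of the synaptonemal complex, which joins paired chromosomes in meiosis.
Ddx4, chr13:112652311-112652369, minus strand: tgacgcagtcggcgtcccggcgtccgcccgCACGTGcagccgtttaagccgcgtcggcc
Mael, chr1:166238932-166238994, minus strand: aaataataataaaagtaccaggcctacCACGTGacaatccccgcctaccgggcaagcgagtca
Sycp1, chr3:102936159-102936224, minus strand: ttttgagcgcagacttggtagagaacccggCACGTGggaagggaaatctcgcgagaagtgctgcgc
Tdrd1, chr19:56826168-56826208, plus strand: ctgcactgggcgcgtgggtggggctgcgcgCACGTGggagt
Tex12, chr9:50561326-50561391, minus strand: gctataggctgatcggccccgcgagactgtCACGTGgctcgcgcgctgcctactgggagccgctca
The motif began 11 bases before the start at Tdrd1, 29 at Ddx4, 93 at Tex12, 94 at Sycp1 and 223 at Mael. The 250 bases before the start held CACGTG in 6.06% of all promoter windows. The 5 promoters shown were chosen among those that hold it, so this share is no comparison for them. Of the listed germline genes with a window, 5 of 8 with H3K9me3 and 9 of 13 without it held the motif.

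The first question was how far the 2 peak lists covered the same places. Most peaks of either list had no counterpart, a peak of the other list with at least 1 bp in common. That held for 11120 LPS peaks (64.3%, 63.6 to 65.0) and 12951 PBS peaks (67.6%, 66.9 to 68.2). The unmatched peaks were weak, with a median of 16 tags (LPS) or 15 tags (PBS), where matched peaks had 24 and 23. The caller's score, a p-value turned to minus 10 times its base 10 logarithm, separated them further. Of the peaks with scores of 50 to 60, 19.5% in LPS and 17.0% in PBS had a counterpart. Of those with scores of 200 or more, 97.4% (568 of 583) in LPS and 99.0% (477 of 482) in PBS had one. A place that a list does not name fell under the caller's threshold there, and may still carry the mark.

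The lists were thin in both libraries. The filtered libraries held 28586946 tags with LPS and 27727997 with PBS, of which 1.61% and 1.67% lay in peaks, against 14.0% and 17.8% for H3K4me3. Peaks had a median length of 258 bp in LPS and 245 bp in PBS and covered 5524 and 5631 kb in all. The fragment length that the caller estimated was 71 and 66 bp, close to the tag length of 50 bp, against 149 and 142 bp for H3K4me3. The part of that difference in the peak calls was not tested.

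Where H3K9me3 peaks met H3K4me3 peaks of the same treatment, the 2 libraries differed. An H3K4me3 peak lay on 5835 LPS peaks (33.8%, 33.0 to 34.5) and on 4297 PBS peaks (22.4%, 21.8 to 23.0). The gap was larger among peaks with no counterpart, at 25.3% in LPS and 12.1% in PBS, than among matched peaks, at 49.0% and 43.9%. Set against the H3K4me3 list of the other treatment, the shares were 30.4% in LPS and 24.5% in PBS, so LPS peaks met more H3K4me3 whichever of the 2 lists was used. The LPS share was the larger although the H3K4me3 list of LPS was the shorter one, with 28478 peaks over 35447 kb against 31368 peaks over 41200 kb.

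The overlap with H3K4me3 was greatest at the strongest H3K9me3 peaks. It held for 20.9% of LPS and 13.7% of PBS peaks with scores of 50 to 60, and for 91.6% and 86.7% of those with scores of 200 or more. Within 1 kb of a RefSeq start lay 16.7% of LPS peaks (16.2 to 17.3) and 11.9% of PBS peaks (11.5 to 12.4). Of those near a start, 91.2% in LPS and 88.6% in PBS met H3K4me3, against 22.2% and 13.5% of the others. Starts on chromosome 18 were not used here, so peaks of that chromosome count among the others. Neither list was made against a control library, so a place that yields many tags with any antibody can be listed for both marks, and its part in the overlap was not tested.

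**Figure D1:**
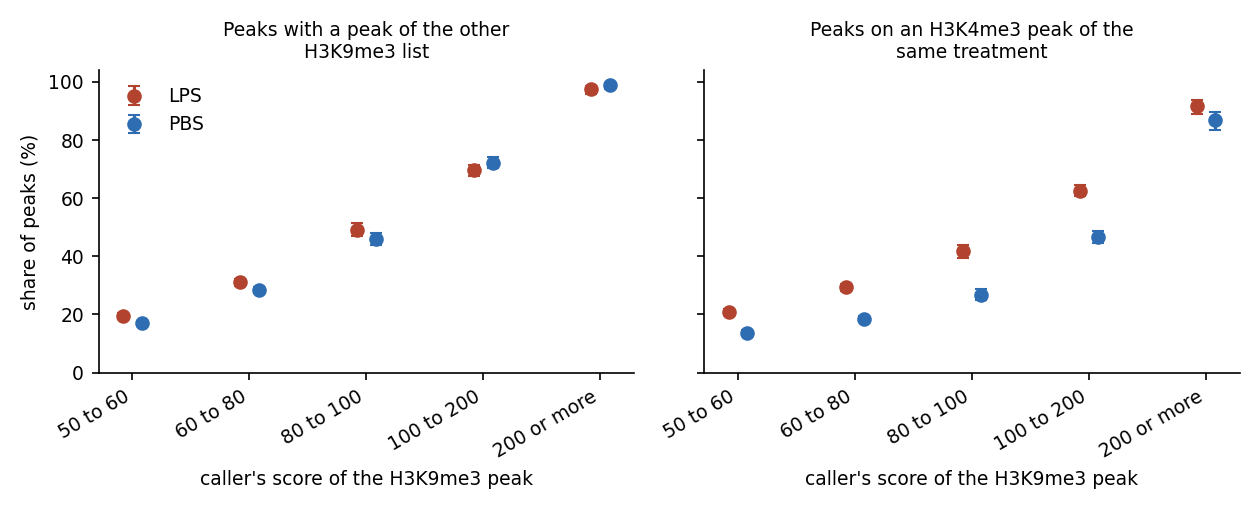
Share of H3K9me3 peaks (percent, vertical axis) in 5 classes of the caller's score (horizontal axis) that had a peak of the other H3K9me3 list (left) or lay on an H3K4me3 peak of the same treatment (right), for the LPS and the PBS library, with bars for 95% Clopper-Pearson intervals. Both shares are highest in the top class, 97.4% and 99.0% on the left, and on the right LPS lies above PBS in every class.

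Split by H3K4me3, the H3K9me3 peaks of the 2 libraries differed in opposite directions. On H3K4me3 the LPS peaks held 224628 tags and the PBS peaks 170999, a log2 ratio of LPS to PBS of 0.35 (0.34 to 0.36). All ratios are of tags per filtered tag, so that equal numbers of tags in the 2 libraries give -0.04. Off H3K4me3 the LPS peaks held 235135 tags and the PBS peaks 291261, a log2 ratio of -0.35 (-0.36 to -0.34). These sums follow the length that was called, which was 2336 kb in LPS and 1651 kb in PBS on H3K4me3, and 3188 and 3980 kb off it. Per covered kb the log2 ratios were -0.15 and -0.03.

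Regions with peaks in both lists were nearly level between the libraries. Merging overlapping peaks gave 30055 regions, of which 5992 had a peak in both lists, 11116 in LPS only and 12947 in PBS only. At these 5992 regions the log2 ratio had a median of 0.03, with quartiles of -0.31 and 0.37. At the 3204 shared regions that met an H3K4me3 peak of either treatment it was 0.08. At the 2788 that met none it was -0.04, the value of equal tags. In the 2832 that held 50 tags or more over both libraries the median was 0.05 (0.01 to 0.07, read from the ranked regions). A ratio of 2-fold or more towards LPS was reached by 247 of them (8.72%), and towards PBS by 127 (4.48%). An H3K4me3 peak of either treatment lay on 204 of the 247, on 68 of the 127, and on 2030 of all 2832. In tags per covered kb the median was -0.02, and only 2 regions were 2-fold higher in each direction. This measure counts each library only over the length of its own peaks, and tags outside them are unknown. It therefore cannot show whether tags differed over the whole of a region.

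The region with the highest ratio lay in Fyb, the gene of an adaptor protein of T cells and myeloid cells (chr15:6527216-6534041). It held 697 tags with LPS over 6.83 kb and 67 with PBS over 0.787 kb (log2 3.33, 2.97 to 3.72), or 0.22 per covered kb. The LPS library also had an H3K4me3 peak there, with 451 tags, and the PBS library had none. Next came regions in Hdac9, a histone deacetylase gene, with 65 and 11 tags (2.52, 1.59 to 3.59), and in Actr3b, an actin-related gene, with 121 and 22 (2.42, 1.75 to 3.14). A region 155 kb from Dcc on chromosome 18 had 68 and 14 tags (2.24), and one in Nrip1, a nuclear receptor corepressor gene, 66 and 14 (2.19). Per covered kb these 4 came to values from -0.005 at Actr3b to 0.35 near Dcc.

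The region with the lowest ratio lay in Ctnnb1, the gene of beta-catenin (chr9:120950430-120950819). It had 20 tags with LPS over 0.307 kb and 90 with PBS over 0.35 kb (log2 -2.21, -2.99 to -1.50). Here the difference was in tags per kb as well, with -2.02. H3K4me3 ran the other way at this place, with 117 tags in LPS and no peak in PBS. The other 3 regions that passed 2-fold per covered kb, in Hs6st3, in Bbox1 and at Mir6236, had nearly equal tags (27 and 28, 28 and 28, 47 and 37) over peaks of unequal length. The next lowest regions by tags lay in Ncoa2, a steroid receptor coactivator gene, with 19 and 78 tags (-2.08), and far from coding genes, 176 kb from Epm2a, 301 kb from Shox2 and 635 kb from Nr4a2, with 13 tags in LPS and 50 to 52 in PBS. At these 4 regions the ratio per covered kb lay between -0.26 and 0.07.

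**Figure D2:**
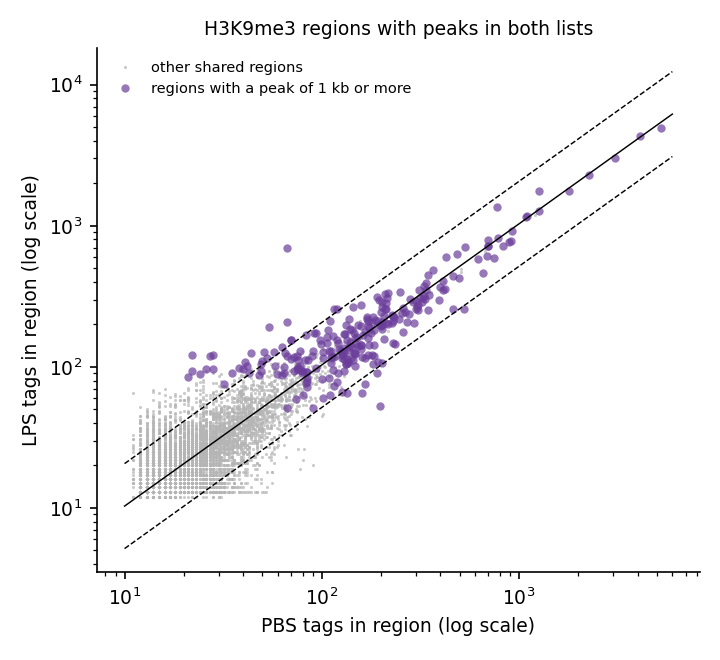
H3K9me3 tags in LPS (vertical axis, log scale) against PBS (horizontal axis, log scale) at the 5992 merged regions with peaks in both lists, with regions that hold a peak of 1 kb or more in purple; the solid line marks equal tags per filtered tag and the dashed lines a 2-fold ratio. The region in Fyb stands apart above the upper line with 697 and 67 tags, and the regions with most tags lie near the solid line.

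The question for chromosomes was whether H3K9me3 was spread over them in the same way in both libraries. Chromosome 17 had the most peaks per Mb, 8.86 in LPS and 9.25 in PBS, followed in LPS by chromosome 4 (8.56, and 9.06 in PBS) and chromosome 11 (8.08, and 7.49 in PBS). Chromosome X had the fewest, 2.09 in LPS and 2.55 in PBS, followed in LPS by chromosomes 12 (5.55 and 6.49) and 15 (5.62 and 6.72). On 18 of the 20 chromosomes the PBS list had more peaks. The exceptions were chromosome 11, with 986 peaks in LPS and 913 in PBS, and chromosome 19, with 429 and 392.

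By peak tags, chromosomes 19 and 11 again had the highest ratios and X the lowest. Chromosome 19 had 9895 tags with LPS and 8024 with PBS (log2 0.26, lower bound 0.22), chromosome 11 had 29515 and 25299 (0.18, lower bound 0.15), and chromosome X had 9122 and 10577 (-0.26, lower bound -0.30). The log2 ratio was under 0 on 15 chromosomes and over 0 on 5, with intervals wholly under 0 on 14 and wholly over 0 on 4. Peaks without a counterpart held 45.6% of the peak tags in LPS and 49.2% in PBS. The intervals do not cover the entry or loss of such peaks at the caller's threshold, so they are too narrow. Chromosomes 9, 15 and 17 had fewer peaks in LPS but ratios of tags over 0, at 0.01, 0.07 and 0.04. Per covered kb chromosomes 19 and 11 came to -0.04 and -0.08, and X to 0.01. Among peaks with scores of 100 or more, chromosome 11 turned to -0.071, while chromosome 19 stood at 0.34 and X at -0.33. For peaks off H3K4me3 the ratio was under 0 on all 20 chromosomes, and chromosomes 19 (-0.06) and 11 (-0.09) had the values nearest to 0. Chromosome 11 had the largest share of LPS peaks on H3K4me3, 42.6%, and X the smallest, 16.8%, with 30.9% and 11.2% in PBS.

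Chromosomes with more genes had higher ratios. Across the 20 chromosomes the log2 ratio of peak tags went with the number of protein-coding genes per Mb with a Pearson r of 0.69 and a Spearman rho of 0.70. These are descriptions, since all points share the same 2 libraries. Without chromosomes 11, 19 and X the values were 0.49 and 0.55 over 17 autosomes. For peaks off H3K4me3 they were 0.55 and 0.43 over 20 chromosomes, and 0.25 and 0.28 over the 17. Chromosome 7 had the most genes per Mb, many of them in receptor families, and a log2 ratio of only -0.03. The peaks per Mb themselves went with gene density more in LPS (rho 0.76) than in PBS (rho 0.46), although the difference was not tested.

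**Figure D3:**
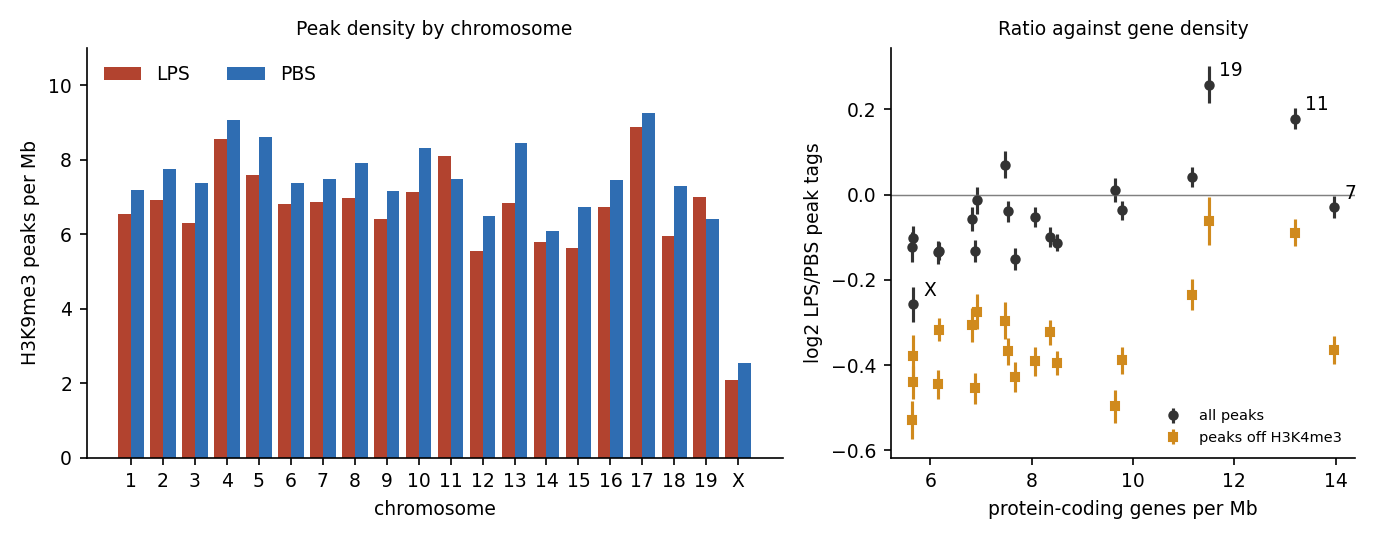
Left, H3K9me3 peaks per Mb (vertical axis) on each of the 20 chromosomes (horizontal axis) in LPS and PBS. Right, the log2 ratio of LPS to PBS peak tags per filtered tag (vertical axis) against protein-coding genes per Mb (horizontal axis), 1 point per chromosome with its 95% counting interval, for all peaks and for peaks off H3K4me3; chromosomes 19 and 11 are highest at 0.26 and 0.18, and every point off H3K4me3 lies under 0.

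Domains were then compared within chromosomes. Bins of 1 Mb were classed by the number of protein-coding genes whose midpoint lay in them, with 331 bins holding 0 genes, 1049 holding 1 to 5, 839 holding 6 to 15 and 422 over 15. H3K9me3 peaks were densest where genes were densest in both libraries. LPS had 2.95, 4.90, 7.99 and 10.7 peaks per Mb from the gene-free to the gene-richest class, and PBS had 4.62, 5.79, 8.70 and 10.2. Bins were laid from the first base of each chromosome, and unassembled sequence, where no peak can be listed, was not taken out. Any such length lowers the density, above all in the gene-free class, and its part in the gradient was not tested. Between the libraries, PBS was the higher in the first 3 classes and LPS in the last.

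The log2 ratio of peak tags went from -0.51 (-0.53 to -0.48) in bins without genes, through -0.17 and -0.07, to 0.19 (0.18 to 0.20) in bins with over 15. Bins without genes held 972 LPS peaks with 21750 tags and 1521 PBS peaks with 29976 tags. Bins with over 15 genes held 4516 LPS peaks with 131527 tags and 4315 PBS peaks with 111909 tags. The ratio was higher in bins with over 15 genes than in bins with 0 to 5 on all 20 chromosomes, by 0.10 on chromosome 16 to 0.64 on chromosome 14, with a median of 0.37. The gradient was in the sums of peak tags, and per covered kb the 4 classes came to 0.06, -0.02, -0.04 and -0.03. The latter leave out stretches that a library did not list, so they cannot show how the mark differed there. At shared regions the medians were -0.04, -0.04, 0.03 and 0.08.

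Overlap with H3K4me3 went with gene density in both libraries. It went from 8.95% of LPS peaks in bins without genes to 46.1% in bins with over 15, and from 5.79% to 33.8% of PBS peaks. Off H3K4me3 the log2 ratios of the 4 classes were -0.62, -0.41, -0.37 and -0.16, and on H3K4me3 they were -0.14, 0.35, 0.25 and 0.56. The order from gene-free to gene-richest bins was thus present on either side of that split, except that the middle classes changed places on H3K4me3. The H3K4me3 libraries themselves had ratios of -0.22, -0.37, -0.36 and -0.32, with no such order. Over 100 kb from a protein-coding gene lay 16.9% of LPS peaks and 21.6% of PBS peaks, and inside one lay 49.3% and 42.6%.

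**Figure D4:**
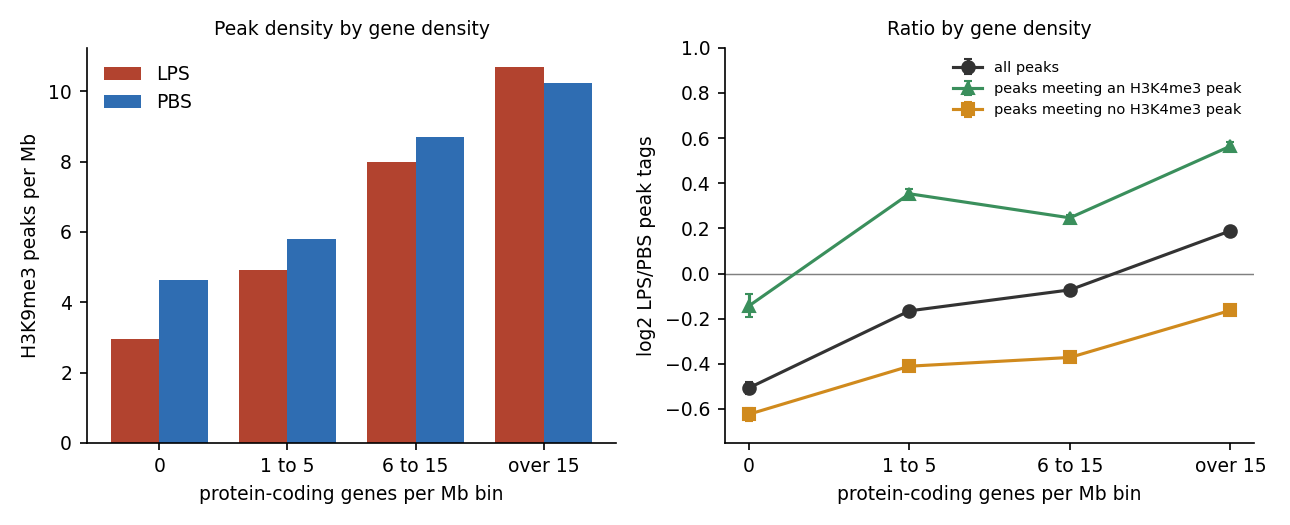
Left, H3K9me3 peaks per Mb (vertical axis) in 4 classes of 1 Mb bins by number of protein-coding genes (horizontal axis) in LPS and PBS. Right, the log2 ratio of LPS to PBS peak tags per filtered tag (vertical axis) in the same classes for all peaks and for peaks that meet an H3K4me3 peak or none, with 95% counting intervals; all peaks run from -0.51 to 0.19.

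Most peaks stood alone. When peaks with gaps of at most 10 kb were chained, 74.1% of LPS peaks and 74.0% of PBS peaks were single, and the median distance to the nearest peak was 32.4 and 33.2 kb. Clusters of 5 or more peaks numbered 45 in LPS, with 303 peaks (1.75%) and 4.88% of the peak tags. In PBS they numbered 57, with 416 peaks (2.17%) and 7.78% of the tags. A zinc finger gene lay on 12 of the LPS and 15 of the PBS clusters, and 16 and 20 were on chromosome 4. Of all peaks, chromosome 4 held 1339 of 17288 in LPS and 1416 of 19162 in PBS. The share of all peaks on zinc finger genes was not counted. Of the 2641 bins of 1 Mb, the 26 with most peaks held 5.11% of LPS and 4.98% of PBS peaks, and 9.87% and 10.1% of the tags.

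By number of peaks the densest domain was the zinc finger gene cluster at 145 to 148 Mb of chromosome 4. It holds 27 protein-coding genes, 16 of them named Zfp. KRAB zinc finger proteins of such clusters bind retroelements and recruit SETDB1 to them. In 0.11% of the length considered, the domain held 218 LPS peaks (1.26%) and 254 PBS peaks (1.33%). Its peak tags were 10275 in LPS and 13474 in PBS (log2 -0.44, -0.47 to -0.40), over 110.2 and 134.2 kb of peaks, which gives -0.15 per covered kb. At its 158 shared regions the median was -0.33, with quartiles of -0.55 and -0.04, and -0.19 per covered kb. H3K4me3 peaks lay on 83 of its peaks in each library, 38.1% in LPS and 32.7% in PBS. This domain of zinc finger genes had a lower ratio than chromosome 4 as a whole (-0.11, or -0.08 per covered kb), and the difference was not tested. The 37522 LPS and 39354 PBS tags of the whole chromosome include those of the domain, so its ratio is not that of the rest.

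The clusters with most peaks lay in that domain. In LPS one of 18 peaks ran over Zfp982 (1055 tags, beside 15 PBS peaks with 1057 tags) and one of 16 over Zfp992 (1348 tags, beside 1561). In PBS one of 17 peaks ran over Zfp992 and Zfp981 (1695 tags, beside 1333 in LPS) and one of 15 over Zfp982 and Zfp985 (589, beside 281). The other large cluster was at the centromeric end of chromosome 17, 78.1 kb from Scaf8, with 11 LPS peaks and 524 tags, and 14 PBS peaks and 774 tags. It held no gene.

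**Figure D5:**
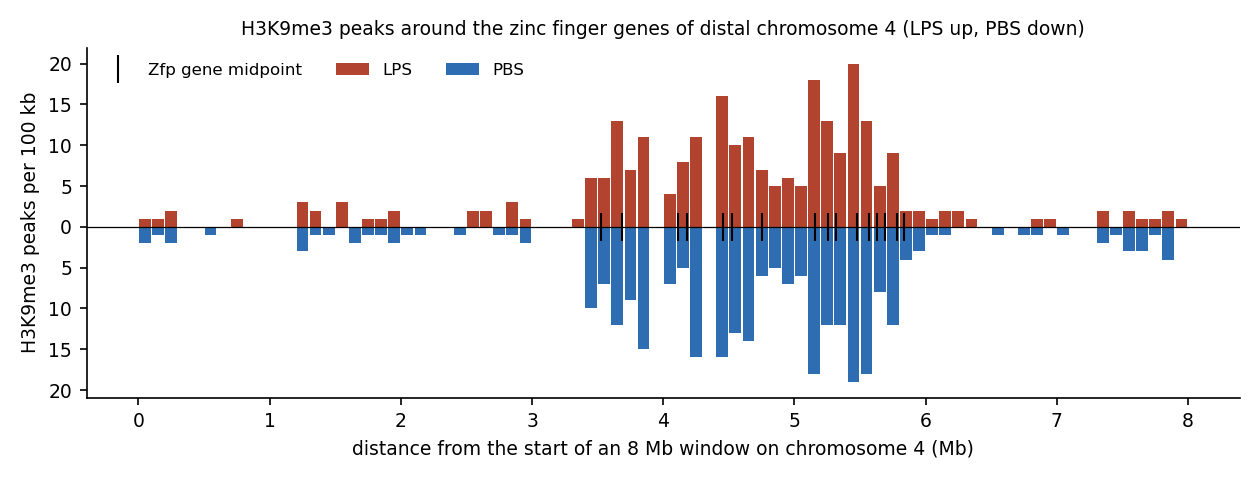
H3K9me3 peaks per 100 kb (vertical axis, LPS upwards and PBS downwards) along an 8 Mb window of distal chromosome 4 (horizontal axis, Mb from the window start), with ticks at the midpoints of Zfp genes. Peaks crowd around the Zfp genes in both libraries, where the 3 Mb domain held 218 LPS and 254 PBS peaks.

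Other bins with many peaks held families of repeated genes. The bin at 20 to 21 Mb of chromosome 8, with a defensin gene and predicted genes, had 69 LPS and 73 PBS peaks (4245 and 4781 tags, log2 -0.22). The bin at 85 to 86 Mb of chromosome 1, with Sp110, Sp140 and Sp100, genes of chromatin readers induced by interferon, had 65 and 71 (6932 and 9228, -0.46). That is more tags than in the chromosome 4 bin with most peaks, which held 4698 and 6003. The bin at 94 to 95 Mb of chromosome 5, with Pramel genes, which are expressed in the germ line, had 40 and 36 (1002 and 1084, -0.16). Only 1 of the 8 bins with most peaks had a ratio of tags over 0. It was the bin at 35 to 36 Mb of chromosome 17, in the major histocompatibility complex with Tnf and class I genes, with 61 coding genes, 32 and 27 peaks, and 1293 and 815 tags (0.62). Per covered kb the bins came to much less, -0.08 on chromosome 8, -0.10 on chromosome 1, -0.09 on chromosome 5 and 0.06 on chromosome 17. H3K4me3 met 18 of its 32 LPS peaks and 12 of its 27 PBS peaks.

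Long peaks, of at least 1 kb, were few but held many tags. There were 242 in LPS (1.4% of peaks, 15.8% of peak tags) and 203 in PBS (1.06% and 14.6%). A counterpart was listed for 92.1% of them in LPS and 89.7% in PBS, and 72.3% and 69.5% lay on H3K4me3. Chromosomes 1 and 8 held the most, with 31 and 34 in LPS and 42 and 28 in PBS. The 5 peaks just under 1 kb had medians of 117 tags with LPS and 85 with PBS, and the 5 just over it 92 and 109.

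Regions long in both lists were level, and those long in 1 list were not. The 143 regions long in both had a median log2 ratio of -0.03, from -1.09 to 1.11, and 113 of them lay on H3K4me3. Of the 97 long in LPS only, 78 had a PBS peak and their median was 0.64. Of the 58 long in PBS only, 37 had an LPS peak and their median was -0.46. Per covered kb these medians were -0.04, 0.06 and -0.06. The choice of regions long in 1 list fixes the direction of their ratios by tags, so these are descriptions.

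The regions with most tags were nearly level between LPS and PBS, and each also had H3K4me3 peaks in both treatments. One at chr14:19415679-19419743, with no gene, had 4959 tags with LPS and 5269 with PBS (log2 -0.13, -0.19 to -0.08), and 3982 and 4294 in the H3K4me3 libraries. One over the ribosomal RNA pseudogene Rn18s-rs5 (chr17:39842904-39848853) had 4328 and 4111 tags (0.03, -0.03 to 0.09), and 3275 and 3123 with H3K4me3. The longest peak of either list, 8.02 kb in LPS and 8.12 kb in PBS, lay in the annotated span of Tmem267 (chr13:119595499-119603616), with 3043 and 3070 tags (-0.06, -0.13 to 0.02), and 2415 and 2535 with H3K4me3. Regions over 2700054A10Rik on chromosome 17 (2279 and 2256 tags) and 1034 kb from Lrrc4c on chromosome 2 (1775 and 1787) also had H3K4me3 peaks with 1638 to 1763 tags. At most 1 tag per position was kept, which limits the tags that a stretch can hold in either library. Among long peaks the highest count was 1475 tags per kb in LPS and 1374 in PBS. The part of this limit in the level ratios was not tested. Repeated sequence at these places was not examined, since no genome sequence was used.

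Other long peaks were listed for H3K9me3 alone. Ahnak2, a gene of a giant scaffold protein, held 1148 tags with LPS and 1091 with PBS over 5.38 and 5.39 kb (log2 0.03, -0.09 to 0.15). Sfi1, a centrosome gene near the start of chromosome 11, held a region with 1772 tags with LPS and 1260 with PBS, over 6.43 and 3.63 kb (0.45, 0.34 to 0.55), or -0.38 per covered kb. Neither region met an H3K4me3 peak in either treatment. The region at Duxf3, printed above in part, had 923 and 926 tags over 4.17 and 4.10 kb (-0.05, -0.18 to 0.08), and one 44.9 kb from Smgc on chromosome 15 had 714 and 698. Both of the latter also had H3K4me3 peaks.

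The unmatched peaks with most tags were wide, and their scores were moderate. The 5 of LPS had a median score of 68.8, beside 58.6 for all unmatched and 82.1 for all matched LPS peaks, and the 5 of PBS 82.9, beside 58.4 and 81.2. In LPS the first was a peak of 4.92 kb in Plec, the gene of the cytoskeletal linker plectin, with 696 tags, a score of 120.2 and no PBS peak within 11.8 kb. The next were in Sfi1 (319 tags, score 55.6), in Sp110 and Sp140 (258, 97.2), in Mroh2a (242, 68.8) and near Mid1 on chromosome X (158, 51.4). The peak near Mid1 ended 0.158 kb from a PBS peak. At Sp110 the LPS library also had an H3K4me3 peak of 619 tags and the PBS library none.
In PBS the first was a peak of 2.62 kb in Sfi1, with 771 tags and a score of 71.1, and the second lay in A530032D15Rik (544 tags, 96.4), 0.59 kb from an LPS peak. The others lay in the predicted genes Gm40369, Gm36327 and Gm40365 of chromosome 6, with 218 to 255 tags and scores from 50.6 to 113.0. Each list thus held an unmatched peak in a different stretch of Sfi1.

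Gene bodies were described last, by the lists of genes to which H3K9me3 is most often tied. Of all 21631 protein-coding genes, 3523 (16.3%) held a peak of both lists, 2298 (10.6%) of LPS only and 1830 (8.46%) of PBS only. The median log2 ratio of the 3523 was 0.09. Long genes held more peaks, from 4.56% of genes under 10 kb to 52.5% of genes over 100 kb with both, so lists of long genes have more by length alone.

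Imprinted genes, expressed from 1 parental copy, held peaks in both lists more often than genes at large. Of 39 listed, 33 were found among protein-coding genes. Peaks of both lists lay in 20 of these 33, of LPS only in 3 and of PBS only in 0. By length class the shares were 4 of 10 genes under 10 kb, 4 of 6 of 10 to 30 kb, 6 of 10 of 30 to 100 kb and 6 of 7 over 100 kb, against 4.56%, 10.5%, 24.1% and 52.5% of all genes. The median log2 ratio of the 20 was -0.10, with members on both sides. Cdkn1c, a cell cycle inhibitor, had 120 tags with LPS and 183 with PBS (-0.65, -0.997 to -0.31), and Igf2r, the receptor that clears IGF2, 74 and 111 (-0.63, -1.07 to -0.19). Kcnq1, a potassium channel gene that contains the silencing RNA Kcnq1ot1, had 132 and 74 (0.79, 0.37 to 1.22), and Gnas, a G protein gene, 105 and 80 (0.35, -0.09 to 0.79). Per covered kb these 4 lay between -0.11 and 0.11. Among imprinted noncoding RNAs, which the counts leave out, Kcnq1ot1 had 96 and 37 tags and Airn 107 and 129. Meg3 had 18 tags in PBS only, and H19 and Peg13 had none.

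Zinc finger genes held a peak of both lists at 127 of 428 (29.7%), with 47 in LPS only and 65 in PBS only. In the 4 length classes, from under 10 kb to over 100 kb, 19.4%, 25.3%, 46.4% and 60.9% held both. Of all genes 4.56%, 10.5%, 24.1% and 52.5% did. The median of the 127 was -0.16, beside 0.09 over all such genes. The members with most tags were in the chromosome 4 domain, where Zfp978 had 2124 tags with LPS and 2618 with PBS (-0.35, -0.43 to -0.26), Zfp993 1435 and 1967 (-0.50, -0.60 to -0.40), Zfp992 454 and 446 (-0.02, -0.21 to 0.17) and Zfp991 349 and 521 (-0.62, -0.82 to -0.42). Zfp991 lies inside the annotated span of Zfp978, so the 2 share tags. Per covered kb the 4 lay between -0.16 and -0.09.

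Clustered protocadherins, the adhesion molecules of neurons, held both at 17 of 57, with 4 in LPS only and 13 in PBS only. Over 100 kb it was 13 of 25 (52%), beside 52.5% of all genes. From 30 to 100 kb it was 4 of 8, beside 24.1%, and under 10 kb 0 of 22, beside 4.56%. The protocadherin genes are nested and share peaks, so that Pcdhga1, with 504 and 428 tags (0.19, 0.00 to 0.38; -0.10 per covered kb), contains the peaks of its neighbours. Olfactory receptors held 0 of 1110 in both lists, 8 in LPS only and 7 in PBS only, and vomeronasal receptors 4 of 353, 4 and 16. These receptor genes are short, with median lengths of 0.95 and 0.96 kb.

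Germline genes held peaks in both lists at 8 of 24 (33.3%), with 5 in LPS only and 2 in PBS only, and a median of 0.10. The median length of this list is 40.6 kb, and 24.1% of all genes of 30 to 100 kb held both. At the germline promoters, printed above in part, 8 of the 21 genes with a RefSeq window carried a peak of at least 1 list on any of their windows. Of all windows, counted singly and not by gene, 5.98% did. Dazl had 121 tags with LPS and 127 with PBS (-0.11, -0.49 to 0.26). Ddx4 had 86 and 40 (1.06, 0.50 to 1.64), or 0.50 per covered kb. Sycp2, of the synaptonemal complex, had 38 and 26 tags at the promoter, Sycp1 19 and 27, Mael 17 and 30 and Tdrd1 14 and 15. Hormad1, a meiotic chromosome protein, and Zfp42, a pluripotency factor, had 17 each in LPS only. Only Dazl and Ddx4 of these 8 promoters also had H3K4me3 peaks.
CACGTG was in a promoter window of 5 of the 8 genes with H3K9me3 and of 9 of the 13 without, so it did not mark out the ones listed.

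Over all promoter windows, from 250 bases before to 50 after a start, 489 (1.5%) met peaks of both lists, 898 (2.76%) of LPS only and 562 (1.72%) of PBS only. H3K4me3 peaks lay on 94.9%, 92.9% and 88.4% of these, and on 44.6% of the windows with no H3K9me3. Marked promoters were rich in CG. The median number of CG dinucleotides in 250 bases was 29 in windows with both H3K9me3 lists and H3K4me3, and 15 in windows with H3K4me3 alone. It was 5 in the 25 windows with both H3K9me3 lists and no H3K4me3. CACGTG was in 7.33% of the first of these classes and in 8.35% of the second. Windows on chromosome 18 were not used here.

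Counts for genes of the LPS response are set beside those for genes of like length. Of 35 interferon-stimulated genes 0 had a peak in both lists, 4 in LPS only (Oas3, Oasl2, Ifit2 and Stat2, with 13 to 23 tags) and 1 in PBS only (Oas2, with 21 tags). The median length of this list is 14.8 kb, and 10.5% of all genes of 10 to 30 kb held both. The 4 with LPS only are 11.4%, beside 10.6% of all genes. Of 30 inflammatory mediators 2 (6.67%) had peaks in both lists and 2 in LPS only, with a median length of 4.93 kb, where 4.56% of all genes under 10 kb held both. Cxcl1, a neutrophil chemokine, had 33 tags with LPS and 18 with PBS (0.83, -0.04 to 1.75; 0.14 per covered kb), and Nos2, inducible nitric oxide synthase, and Ptgs2, cyclooxygenase 2, had 23 and 15 tags in LPS only. Il18, the gene of interleukin 18, had 96 and 48 tags (0.96, 0.44 to 1.49; 0.57 per covered kb), and these are the tags of the peak on the Tex12 promoter, which lies inside the annotated span of Il18.

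Genes of macrophage identity held both at 6 of 27 (22.2%), with 4 in LPS only (14.8%) and 3 in PBS only (11.1%). Of all genes 16.3% held both, 10.6% LPS only and 8.46% PBS only. The median length of this list lies between 10 and 30 kb, and 10.5% of all genes of that length held both. Runx1, Mrc1, Cd36 and Mertk are over 100 kb, where 52.5% of all genes held both. The median log2 ratio was -0.58, from only 6 genes, beside 0.09 over all genes with peaks of both lists. Of the 6, Maf alone had a ratio over 0. Runx1, a transcription factor of blood cells, had 124 tags with LPS and 135 with PBS (-0.17, -0.53 to 0.20), and Mrc1, which encodes the mannose receptor, 25 and 27 (-0.16). Cebpa, a myeloid factor, had 15 and 30 (-1.04, -2.04 to -0.10), the scavenger receptor gene Cd36 14 and 29 (-1.09, -2.13 to -0.13) and Mertk, a receptor for dying cells, 14 and 27 (-0.99, -2.04 to -0.01). Maf, a factor of macrophage differentiation, had 48 and 17 (1.45, 0.63 to 2.34). Per covered kb Cebpa, Mertk and Cd36 lay between -0.11 and -0.05, and Runx1, Maf and Mrc1 between 0.18 and 0.47. Housekeeping genes held both at 4 of 20 (20%, beside 16.3% of all genes), led by Ywhaz with 76 and 59 tags.

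Among markers of other cells, Pax5 of B cells had 85 and 19 tags (2.12, 1.39 to 2.92), or -0.12 per covered kb, and Ebf1, also of B cells, 14 tags in PBS only. Wt1 of mesothelium had 40 and Pdgfra of fibroblasts 24, in LPS only. The T cell, neutrophil, and eosinophil and mast cell lists had none.

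Genes of H3K9 methylation and of the nuclear envelope were described in the same way. Of 23 genes of H3K9 methylation and HP1, 7 (30.4%) held peaks of both lists, 2 of LPS only and 5 of PBS only. Their median length is 40.2 kb, and 24.1% of all genes of 30 to 100 kb held both. Tasor, of the HUSH silencing complex, had 62 tags with LPS and 31 with PBS (0.96, 0.31 to 1.63), and Atf7ip, the partner of SETDB1, 41 and 14 (1.51, 0.60 to 2.50). Per covered kb they came to 0.05 and -0.07. The methyltransferase gene Setdb2 had 30 and 28 (0.06, -0.74 to 0.85) and Morc3, a chromatin ATPase gene, 21 and 28 (-0.46, -1.35 to 0.41), or 0.12 and -0.22 per covered kb. Of 11 SUN and LINC genes, 3 (27.3%) held both and 2 LPS only. Their median length is 21.3 kb, and 10.5% of all genes of 10 to 30 kb held both. However, Syne1 spans 531 kb and Syne3 80.7 kb. Of all genes over 100 kb 52.5% held both, and of those of 30 to 100 kb 24.1%. Sun5, a testis member, had 67 and 65 tags (0.00, -0.51 to 0.51), the giant nesprin genes Syne1 37 and 63 (-0.81, -1.44 to -0.20) and Syne2 32 in LPS only, and Syne3 38 and 25 (0.56, -0.21 to 1.35). Per covered kb Sun5 came to 0.09, Syne1 to -0.11 and Syne3 to 0.34. Of 13 genes of the nuclear lamina and inner membrane, 2 (15.4%, beside 16.3% of all genes) held both, Tmpo with 28 and 23 tags and Nup153 with 28 and 13, 1 LPS only (Lbr, 16 tags) and 2 PBS only, among them Lemd3 with 18.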

How the data were processed

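The data are ChIP-seq peak lists of 4 libraries, 1 per mark and treatment. The build mm10, Bowtie 0.12.8, CASAVA 1.4, DiffBind and MACS 1.4.2 are named in the submitters' processing notes. Per the file headers, peaks were called in each library alone, without a control, at a p threshold of 1e-05, keeping at most 1 tag per position. For each peak the authors deposited its position, the count of tags, a score (minus 10 times the base 10 logarithm of the caller's p-value) and a fold enrichment, the caller's ratio of peak to background, which was not used. Scores were used only to class and filter peaks within a list.

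From these, overlaps of at least 1 bp, merged regions and log2 ratios of LPS over PBS, from tags per filtered tag, were computed with Python 3.11.15, numpy 2.4.6, pandas 2.3.3 and scipy 1.17.1, checked with bedtools 2.31.1 and tested on simulated data. Sums of tags follow the length called in each library, so ratios per covered kb stand beside most of them, and a ratio given by tags alone can reflect that length. Ratios per covered kb in turn leave out all tags beyond the called length of each library. Genes, spans and promoter sequences are RefSeq's for GRCm38.p6. The gene table gives no strand or exons, so positions within genes are not stated, and the planned sequences of whole regions were replaced by promoter windows. Samples were grouped by antibody and treatment in the labels. The members and the 18 gene lists were chosen with earlier results of these data known. The regions named are the 5 highest and lowest ratios, the 5 longest, the 5 unmatched peaks with most tags and the 3 largest clusters per list, and the genes named are mostly the 4 of a list with most tags. Those named beyond that rule (in promoters, dense bins, regions by total tags or by tags per kb, and further list members) were chosen after their values were seen. The alternatives tried are given at the end. Some alternatives were added after seeing the data: lists of equal length by chromosome and domain, peaks off H3K4me3 by chromosome, leaving out long peaks or chromosomes 11, 19 and X, and the H3K4me3 list of the other treatment.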

Additional observations from a re-analysis of the deposited data

How the results depend on the processing

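With 1 library per group nothing could be tested, and leaving out a replicate was not possible. No paired analysis was possible because each group held 1 library. Depth limits single peaks: most held under 20 tags and lay near the caller's threshold. The share without a counterpart depended on the rule. In LPS and PBS it was 58.6% and 62.5% when a peak within 1 kb counted, 69.1% and 71.1% when 50% of the peak had to be met, 24.8% and 23.2% at scores of 100 or more, and 65.8% and 65.7% with lists of equal length.

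The median at shared regions turned to -0.015 per covered kb, and was 0.014 when scaled so that the median of all shared regions is 0 and 0.10 when scaled by tags before the filter. The 247 and 127 regions past 2-fold became 2 and 2 per covered kb. They became 59 and 18 at 100 tags or more, while at 20 tags or more the PBS count was 219, and 253 when peaks within 1 kb were merged.

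Chromosome 11 turned to -0.071 at scores of 100 or more and to -0.089 off H3K4me3, and was 0.11 by number of peaks and 0.25 with lists of equal length. Chromosome 19 turned to -0.062 off H3K4me3, and was 0.34 at scores of 100 or more and with lists of equal length, and 0.13 by number of peaks. Chromosome X was -0.33 at scores of 100 or more, -0.19 with lists of equal length and -0.38 off H3K4me3. In bins without genes the ratio was -0.43 with bins of 500 kb, -0.16 at scores of 100 or more, -0.62 off H3K4me3, -0.39 with lists of equal length and -0.54 without long peaks. In bins with over 15 genes it was 0.17 with bins of 500 kb, 0.30 at scores of 100 or more, 0.26 with lists of equal length, 0.17 without long peaks and 0.17 without chromosomes 11, 19 and X, but turned to -0.16 off H3K4me3. Gene-rich bins kept the higher ratio under each of these settings.

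Clusters numbered 12 in LPS and 18 in PBS with gaps of at most 5 kb, and 90 and 108 with 20 kb. Long peaks numbered 44 and 48 at 2 kb, and 514 and 364 at 750 bp, so LPS had more at 750 bp and 1 kb but not at 2 kb. At scores of 100 or more, genes with peaks in both lists were 766 in all, 28 zinc finger, 9 imprinted, 4 germline and 1 macrophage identity gene. With 5 kb added on each side, 2 interferon-stimulated genes had both. On the H3K4me3 list of the other treatment lay 30.4% of LPS and 24.5% of PBS peaks. The causes of these shifts were not tested.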

Other observations

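Chromosome Y lay outside the chromosomes compared. The H3K9me3 lists held 81 peaks on it in LPS and 117 in PBS, and the H3K4me3 lists 27 and 30.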
